A study of Mus musculus with 4 samples.

Results

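The Distal-less homeobox genes Dlx1, Dlx2, Dlx5 and Dlx6 were read in RNA sequencing of whole mouse retina at E13.5. The 4 genes were taken by their gene ID, which stood on 1 row in each library's table, and make up 4 of the 25239 gene IDs listed. There were 2 libraries of genotype control and 2 of genotype Isl1cKO, a conditional knockout that the series describes as an Isl1-null retina. Isl1 encodes a LIM-homeodomain transcription factor of retinal ganglion cells. The Cre driver, the allele, the genotype of the controls and the number of embryos behind a library are not given in the sources used here. P-values therefore measure the spread between these 4 libraries, which may be technical. In bulk tissue, fewer cells of a type and less RNA per cell cannot be told apart.

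Distal-less proteins are homeodomain transcription factors that bind AT-rich DNA. Their genes lie in linked, convergently transcribed pairs, and each pair shares enhancers in the DNA between its genes. Dlx1 and Dlx2 are known in the retina for the differentiation and survival of ganglion cells and of some amacrine and horizontal cells, and in the ventral forebrain for the making of GABAergic interneurons. Dlx5 and Dlx6 follow Dlx1 and Dlx2 in forebrain neurons and pattern the jaw and other parts of the skeleton.

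The genes of the Dlx1 and Dlx2 pair were both well expressed, and those of the Dlx5 and Dlx6 pair were listed at or near 0. Levels are in TPM, transcript abundance scaled to transcript length and to the same total in each library. The summed TPM of Dlx1 and Dlx2 came to 126 (replicate 1) and 131 (replicate 2) among controls, against 161 and 153 for the libraries labelled Isl1cKO. The summed TPM of Dlx5 and Dlx6 was 0.0436 and 0.171 in the controls, and 0.259 and 0 in the libraries labelled Isl1cKO. In each of the 4 libraries the first pair thus stood far above the second. Dlx1 and Dlx2 were higher in both libraries labelled Isl1cKO than in both controls, by 1.25-fold and 1.17-fold, but neither difference passed the threshold over all genes.

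The coding sequences of the 4 genes are related but distinct, which bears on whether short reads can be assigned to the right gene. In the GENCODE M21 transcripts (GRCm38), the coding sequence had 765 bases in Dlx1, 996 in Dlx2, 867 in Dlx5 and 891 in Dlx6, each in 3 coding exons. The 60 coding bases in which the other members were most like Dlx1, which belong to the homeobox, are shown to let the members be compared base by base in a conserved stretch. Capitals mark bases that differ from Dlx1.
Dlx1: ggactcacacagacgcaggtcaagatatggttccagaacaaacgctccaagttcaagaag
Dlx2: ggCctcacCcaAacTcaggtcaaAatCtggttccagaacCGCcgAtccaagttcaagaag
Dlx5: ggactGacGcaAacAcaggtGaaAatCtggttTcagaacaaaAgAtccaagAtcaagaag
Dlx6: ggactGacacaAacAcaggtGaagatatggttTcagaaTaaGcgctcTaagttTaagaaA
In this stretch Dlx2 differed from Dlx1 at 10 bases, Dlx5 at 11 and Dlx6 at 10, and Dlx5 differed from Dlx6 at 11. Over the whole transcripts, no run of 31 bases was shared by any pair of members. The longest shared run was 23 bases, between Dlx2 and Dlx6.

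The targeted gene was read first as a check of the labels. Isl1 read 242 TPM (replicate 1) and 201 TPM (replicate 2) among controls, against 321 TPM and 223 TPM for Isl1cKO. The label of a knockout was not matched by a lower level, and the log2 difference was 0.28 (SE 0.21, adjusted p-value 0.683 in limma). The tables hold no value per exon, so a deletion that leaves a transcript could not be checked, and every direction below rests on the labels. Aligned sequence, from the ratio of coverage to FPKM, was 12.6 to 14.3 gigabases per library, and 13554 to 13932 genes per library reached 1 TPM. Isl1cKO replicate 2 was the lowest in both. Among genes that every cell uses, all 12 RNA polymerase II subunit genes stood at 35.0 TPM or more in each library. Genes at such levels cannot show whether transcripts as rare as those of Dlx5 and Dlx6 were missed.

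Dlx1 (chromosome 2, 71529445 to 71533981, plus strand, mm10) was the most abundant member. It read 81.4 TPM (replicate 1) and 86.4 TPM (replicate 2) among controls, against 110.0 TPM and 99.8 TPM for Isl1cKO. Both values of the libraries labelled Isl1cKO lay above both controls, and the gap between the groups exceeded the difference between replicates in either group. Dlx1 averaged 83.9 ± 3.52 TPM over controls, against 105 ± 7.20 TPM for Isl1cKO (SD, n = 2 each). On the log2(TPM + 1) scale the difference was 0.32 (SE 0.09, 95% interval 0.07 to 0.57), with an unadjusted p-value of 0.0230 and an adjusted p-value of 0.327 in limma. Of the 13984 tested genes, 14.9% had a higher mean level than Dlx1 and 3.35% had a larger rise.

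Dlx2 (chromosome 2, 71543408 to 71546754, minus strand) encodes the partner with which Dlx1 overlaps in expression and function. It stood at 44.2 TPM (replicate 1) and 44.7 TPM (replicate 2) among controls, against 50.8 TPM and 53.0 TPM for Isl1cKO. Replicates lay close together in both groups and the groups did not overlap. The means were 44.5 ± 0.366 TPM and 51.9 ± 1.52 TPM (SD, n = 2 each). The log2 difference was 0.22 (SE 0.08, 95% interval 0.01 to 0.43), with an unadjusted p-value of 0.0445 and an adjusted p-value of 0.396 in limma. Among tested genes, 31% had a higher mean level and 6.84% a larger rise.

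Dlx5 (chromosome 6, 6877801 to 6882068, minus strand) was listed at 0 in control replicate 1 and in Isl1cKO replicate 2. It stood at 0.171 TPM in control replicate 2 and at 0.259 TPM in Isl1cKO replicate 1, where its bases were covered 0.844 and 1.39 times on average. Each group thus held 1 library at 0 and 1 library with a trace, and the groups overlapped. Dlx6 (chromosome 6, 6863334 to 6867970, plus strand) stood at 0.0436 TPM in control replicate 1, with a mean coverage of 0.229, and was listed at 0 in the other 3 libraries. For comparison, Dlx1 had a mean coverage of 427 to 587. Neither Dlx5 nor Dlx6 reached the filter of 1 TPM in 2 libraries, so they were not tested in the main fit. Their log2 differences, used further below, are trace values only. Depth in reads is unknown, and these values do not show that the genes were silent.

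**Figure D1:**
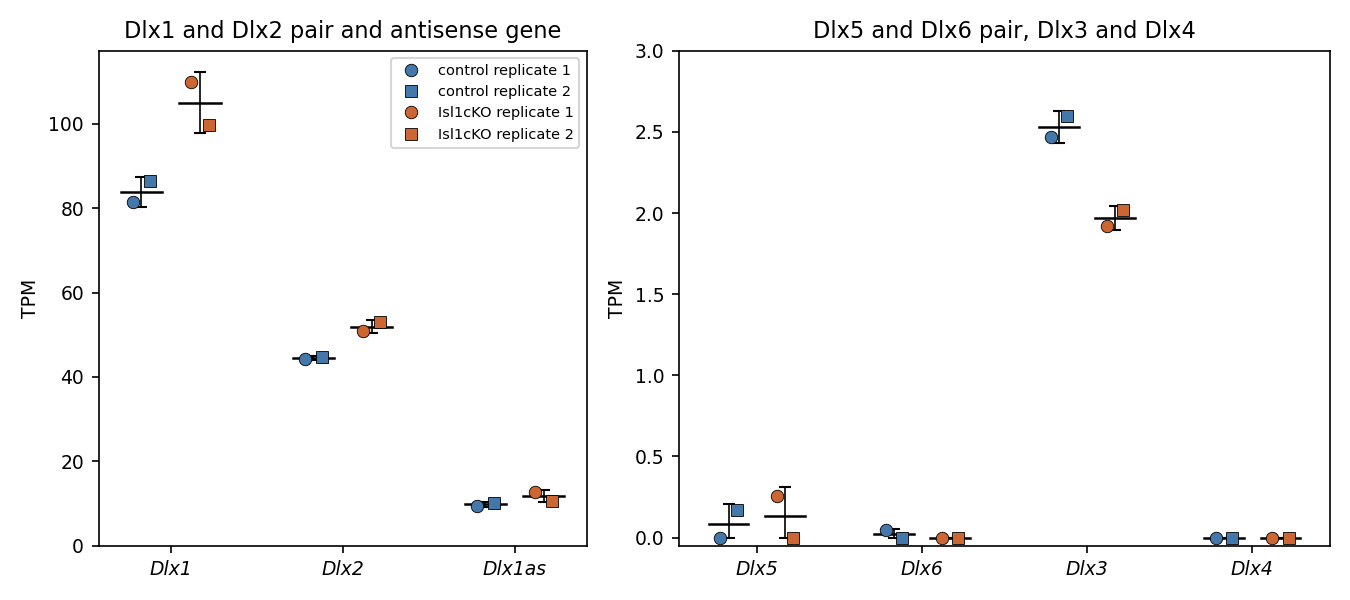
TPM of each library for Dlx1, Dlx2 and the antisense gene Dlx1as (left) and for Dlx5, Dlx6, Dlx3 and Dlx4 (right, on its own scale). Circles are replicate 1 and squares replicate 2, bars are the mean and whiskers the SD, cut at 0. Dlx1 and Dlx2 sit higher in both libraries labelled Isl1cKO, while Dlx5 and Dlx6 stay below 0.3 TPM in every library.

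Of the 4 members 2 were tested, and 0 passed an adjusted p-value of 0.05 in limma, against 0.493% of all 13984 genes in either direction, 0.0286% higher and 0.465% lower. At an unadjusted p-value under 0.05 both tested members were higher, as were 3.20% of all tested genes. This did not hold throughout. With the replicate block Dlx2 had an unadjusted p-value of 0.0800 in limma. With 1 library left out it ran from 0.0508 to 0.201 for Dlx2, and for Dlx1 it was 0.0639 to 0.137 in 3 of the 4 fits and 0.0182 without Isl1cKO replicate 2. Both values of the libraries labelled Isl1cKO lay above both controls for Dlx1 and Dlx2, and for 14.9% of all tested genes, while the reverse order, seen for Dlx3, held for 30.0%. With 2 libraries a group, an exact two-sided permutation test of a single gene cannot give a p-value below 0.333. The median log2 difference over all tested genes was -0.05, and 36.2% of them were higher, so that Dlx1 and Dlx2 lay on the less populated side of the distribution.

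**Figure D2:**
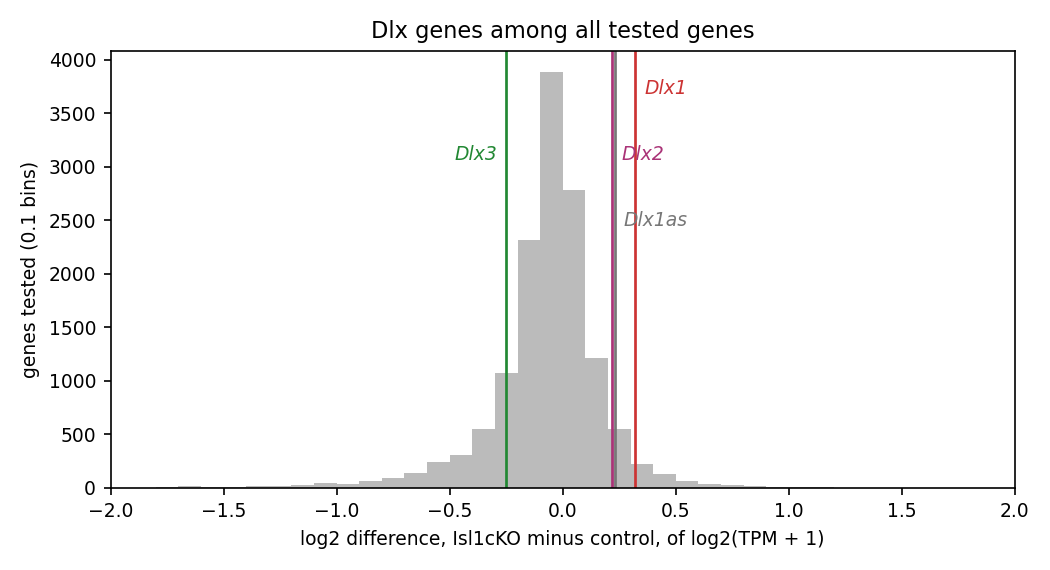
Number of tested genes by log2 difference, libraries labelled Isl1cKO minus control, in bins of 0.1, drawn from -2 to 2. Lines mark Dlx1 at 0.32, Dlx1as at 0.23, Dlx2 at 0.22 and Dlx3 at -0.25, none of which passed the threshold.

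The members were next compared within each pair. Within a library the ratio of Dlx1 to Dlx2 TPM came to 1.84 (replicate 1) and 1.93 (replicate 2) among controls, against 2.16 and 1.88 for Isl1cKO. The ratio averaged 1.89 ± 0.0636 in control and 2.02 ± 0.198 in Isl1cKO (SD, n = 2 each), and the groups overlapped. Dlx1 was therefore the more abundant gene of its pair in each of the 4 libraries, and the balance between the genes differed by less than the spread within the libraries labelled Isl1cKO. For Dlx5 and Dlx6 no ratio was formed, because at least 1 of the genes was listed at 0 in every library. Between the pairs, the log2 difference averaged over Dlx1 and Dlx2 exceeded that over Dlx5 and Dlx6 by 0.26. This is a value with no test, and it reflects the first pair, since the second has almost no signal to change.

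Dlx1as, a non-coding gene on the strand opposite Dlx1 whose span overlaps that of Dlx1 by 3344 bases, was described beside the pair. It stood at 9.41 TPM (replicate 1) and 10.1 TPM (replicate 2) among controls, against 12.7 TPM and 10.7 TPM for Isl1cKO. The groups did not overlap, but Isl1cKO replicate 2 lay near the upper control. The log2 difference was 0.23 (SE 0.11, adjusted p-value 0.505 in limma). The ratio of Dlx1as to Dlx1 TPM was 0.116, 0.117, 0.116 and 0.107 in the same order of libraries. The libraries were made with a strand-marking kit, but whether reads were counted by strand is not given in the sources used here, so reads from the overlap may have been shared between the genes.

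The antisense genes of the other pair had no more signal than the pair itself. Dlx6os1, the locus of the Evf2 enhancer RNA, was listed at 0 in both controls and at 0.0132 and 0.00325 TPM in Isl1cKO replicates 1 and 2. Dlx6os2 was listed at 0 in all 4 libraries.

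**Figure D3:**
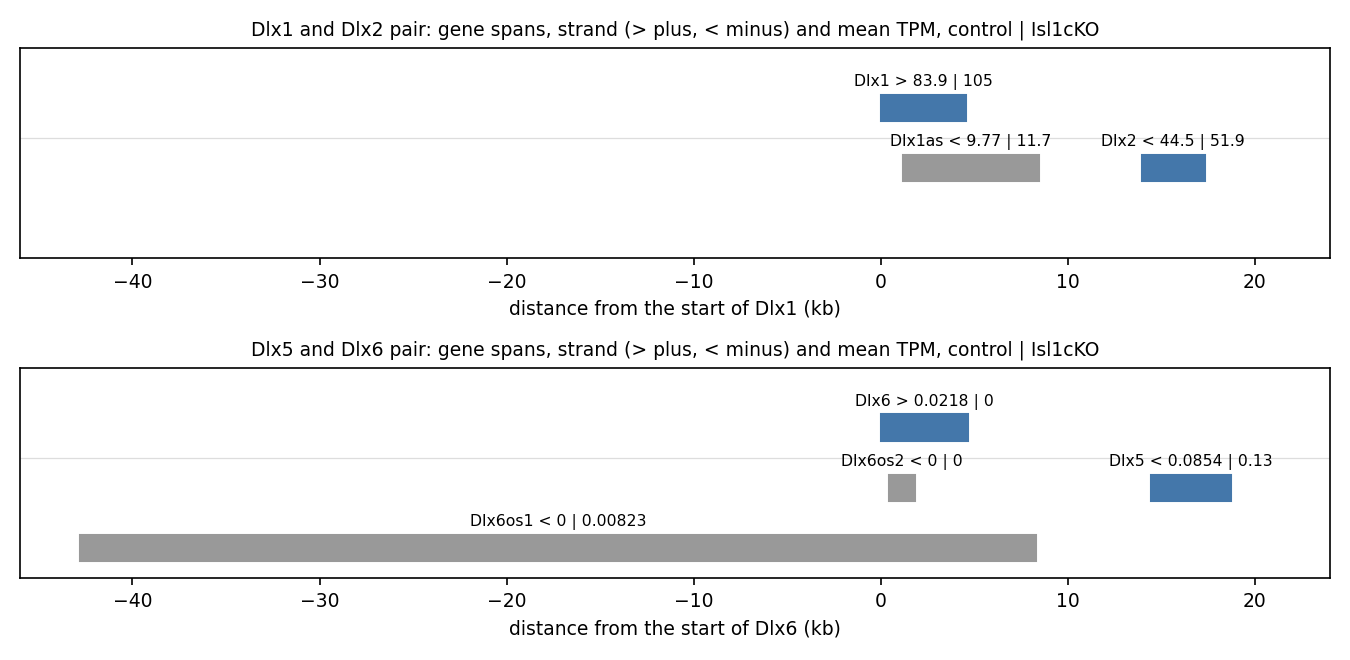
Spans of the genes of each pair and of their antisense genes, by distance in kilobases from the start of Dlx1 (top) and of Dlx6 (bottom), with the strand and the mean TPM in control and Isl1cKO. The pairs have the same convergent layout, while the levels are 83.9 and 105 TPM for Dlx1 against 0.0218 and 0 TPM for Dlx6.

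The pairs are alike in layout. The coding genes of a pair point toward each other, with 9426 bases between Dlx1 and Dlx2 and 9830 bases between Dlx6 and Dlx5. The starts of the partners lie 17309 and 18734 bases apart. The 3 nearest listed genes on each side were read for each pair. Most of those around Dlx1 and Dlx2 were expressed, as the pair was. The trace levels of Dlx5 and Dlx6 were not shared by most of their neighbours.

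Upstream of Dlx1, Metap1d, a mitochondrial methionine aminopeptidase, lies 4254 bases away. It stood at 70.7 TPM (replicate 1) and 81.1 TPM (replicate 2) among controls, against 89.7 TPM and 63.4 TPM for Isl1cKO, so that the groups overlapped and the log2 difference was 0.00 (adjusted p-value 0.995 in limma). Hat1, a histone acetyltransferase, differed by -0.04 and Slc25a12, a mitochondrial aspartate and glutamate carrier, by -0.05. Beyond Dlx2, Platr26 was listed at 0, Itga6, an integrin subunit, differed by -0.34 and Pdk1, a kinase that restrains pyruvate dehydrogenase, by 1.15 (adjusted p-values 0.306 and 0.264). Pdk1 stood at 32.9 TPM (replicate 1) and 22.1 TPM (replicate 2) among controls, against 49.8 TPM and 74.5 TPM for Isl1cKO, with no overlap between the groups.

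Most neighbours of the Dlx5 and Dlx6 pair were well above the trace levels of the pair. Sem1, a proteasome subunit 284676 bases away, stood at 258 to 285 TPM over the 4 libraries. Sdhaf3, an assembly factor of succinate dehydrogenase 73950 bases away on the other side, stood at 24.7 to 28.3 TPM. Slc25a13, Tac1 and Asns were expressed too, with log2 differences of 0.01, -0.43 and -0.54 and adjusted p-values of 0.979, 0.359 and 0.171 in limma, and Gm20619 was listed at 0.

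**Figure D4:**
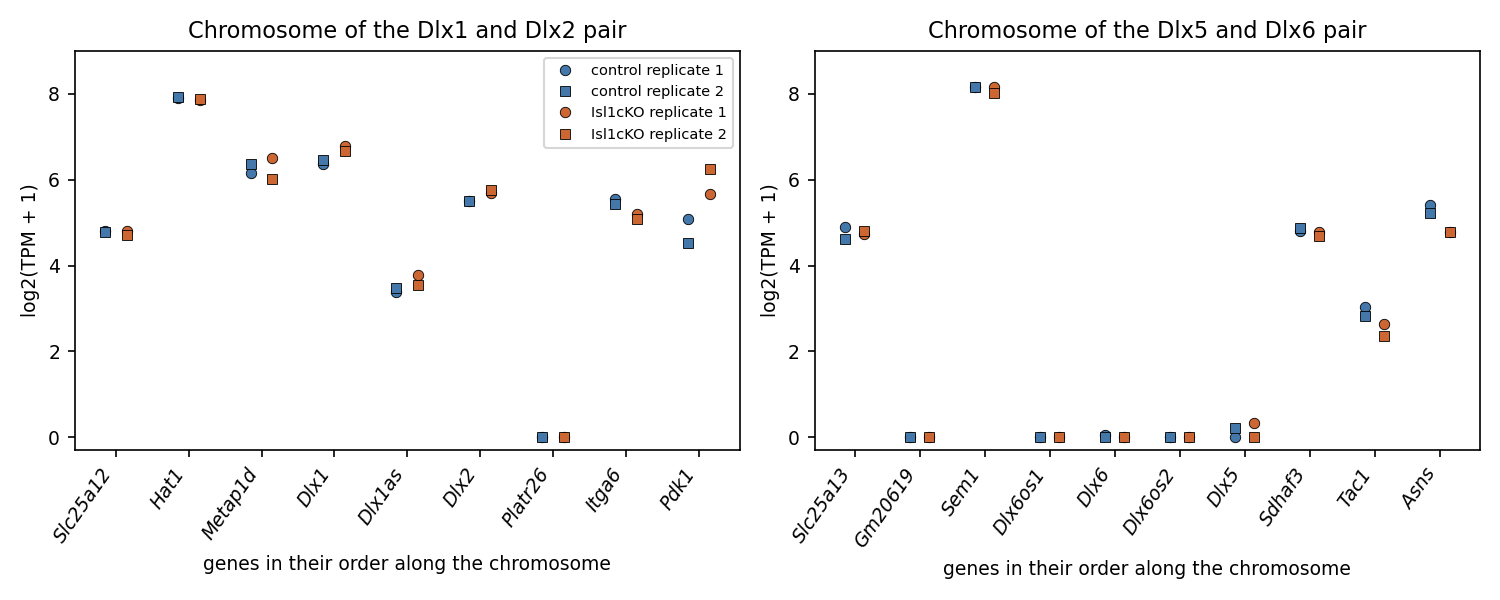
log2(TPM + 1) in each library for the genes of each pair, their antisense genes and the 3 nearest listed genes on each side, in chromosome order. The Dlx5 and Dlx6 pair lies at or near 0 between expressed neighbours, and Pdk1 shows the widest separation of the groups at a log2 difference of 1.15.

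The third pair of the family, Dlx3 and Dlx4, is known from surface ectoderm, placenta and bone. Dlx3 (chromosome 11, 95120117 to 95125296, plus strand) stood at 2.47 TPM (replicate 1) and 2.60 TPM (replicate 2) among controls, against 1.92 TPM and 2.02 TPM for Isl1cKO. It lay lower in both libraries labelled Isl1cKO, with a log2 difference of -0.25 (SE 0.08, unadjusted p-value 0.0297, adjusted p-value 0.352 in limma). Dlx4 was listed at 0 in all 4 libraries. By level per length the order was thus Dlx1, Dlx2, Dlx3, Dlx5, Dlx6 and Dlx4, and the values of Dlx5 and Dlx6 overlapped. The ratio of Dlx1 to Dlx3 TPM was 33.0 and 33.2 in the controls and 57.3 and 49.4 in Isl1cKO replicates 1 and 2, a difference that was not tested.

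Promoters are shown for Dlx1 and Dlx2 because these genes lay higher together. They come from RefSeq on GRCm38.p6 and run from 250 bases before the start of the gene to 50 bases from it on. Capitals mark matches on either strand to the E box CANNTG, the site of basic helix-loop-helix factors, and to the CCAAT box.
Dlx1, chr2:71529195-71529494, plus strand: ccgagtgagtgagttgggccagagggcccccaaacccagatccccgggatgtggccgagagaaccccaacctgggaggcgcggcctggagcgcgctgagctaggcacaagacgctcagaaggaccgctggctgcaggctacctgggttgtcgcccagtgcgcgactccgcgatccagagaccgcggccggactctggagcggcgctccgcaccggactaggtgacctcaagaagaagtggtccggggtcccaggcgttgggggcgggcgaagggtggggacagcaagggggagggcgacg
Dlx2, chr2:71546705-71547004, minus strand: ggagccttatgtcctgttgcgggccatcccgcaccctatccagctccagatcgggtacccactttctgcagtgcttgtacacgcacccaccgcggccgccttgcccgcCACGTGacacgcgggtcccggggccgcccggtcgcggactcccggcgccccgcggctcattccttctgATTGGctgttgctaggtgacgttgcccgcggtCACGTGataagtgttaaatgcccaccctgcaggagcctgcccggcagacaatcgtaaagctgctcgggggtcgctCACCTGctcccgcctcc
The Dlx1 window held 0 matches to CANNTG and the Dlx2 window held 3, of which 2 were the palindrome CACGTG, which is also counted as an E box. Among the 32851 promoter windows of this length, 72.3% held an E box and 7.15% held the palindrome. The CCAAT box was found once in Dlx2 and in 37.4% of all windows. The homeodomain core TAAT was found in 58.0% of all windows, and neither in the Dlx1 nor in the Dlx2 window. The longer homeodomain motif TAATTA, which contains this core, was found in 5.29% of all windows and the TATA motif TATAAA in 13.6%, and again in neither of the 2 windows. The windows were rich in G and C, at 69.3% for Dlx1 and 66.3% for Dlx2 against a median of 52.7%. They held 27 and 29 CpG dinucleotides against a median of 7. A match describes these letters and is no evidence of binding. Dlx5 and Dlx6 were not matched in the promoter table.

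Genes reported in the literature as regulated by Dlx1 or Dlx2 in retina or forebrain were read next. Of 20 listed, 15 were tested, 4 of them with a positive and 11 with a negative difference, with a median log2 difference of -0.16 against -0.05 over all tested genes. In limma 1 of the 15 passed the threshold, against 0.493% of all tested genes. This gene, Cxcr4, encodes a chemokine receptor that guides migrating neurons. It stood at 58.3 and 40.3 TPM in the controls and fell to 7.83 and 5.28 TPM in Isl1cKO replicates 1 and 2. The log2 difference was -2.73 (SE 0.25, adjusted p-value 0.0471). The call did not hold with a pseudocount of 0.1 (adjusted p-value 0.102), with no filter on low values (0.156) or without any 1 of the libraries (0.0595 to 0.191), within a range of 0.00183 to 0.191 over all alternatives. The difference kept its sign in each of these.

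The other targets with the largest differences did not pass. Nrp2, a semaphorin receptor that Dlx proteins are reported to repress, had a log2 difference of -0.55 (SE 0.11, adjusted p-value 0.206). Gad2, a GABA-synthesizing enzyme and reported activated target, averaged 12.4 ± 1.59 TPM in control and 8.58 ± 1.76 TPM in the libraries labelled Isl1cKO (SD, n = 2 each), a log2 difference of -0.49 (adjusted p-value 0.378 in limma). Crx, the photoreceptor regulator that Dlx proteins are reported to repress in retina, was at 49.1 and 41.6 TPM and at 37.9 and 28.3 TPM in the same order, a log2 difference of -0.45 (adjusted p-value 0.423). All 3 lay lower without overlap between the groups, as did 8 of the 15 tested targets and 30.0% of all tested genes. Of the 15, 0 lay higher without overlap, against 14.9% of all tested genes.

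Some targets were chosen for mention after their values were seen. Pou4f2, a ganglion cell factor reported as a direct activated target in retina, stood at 126 TPM (replicate 1) and 124 TPM (replicate 2) among controls, against 135 TPM and 120 TPM for Isl1cKO, with a log2 difference of 0.02 (95% interval -0.23 to 0.28). Ntrk2, the neurotrophin receptor TrkB, differed by -0.02 (95% interval -0.39 to 0.34). Gad1 was listed at 0 to 0.0865 TPM and the forebrain targets Sp9 and Lhx6 at 0.123 TPM or less.

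**Figure D5:**
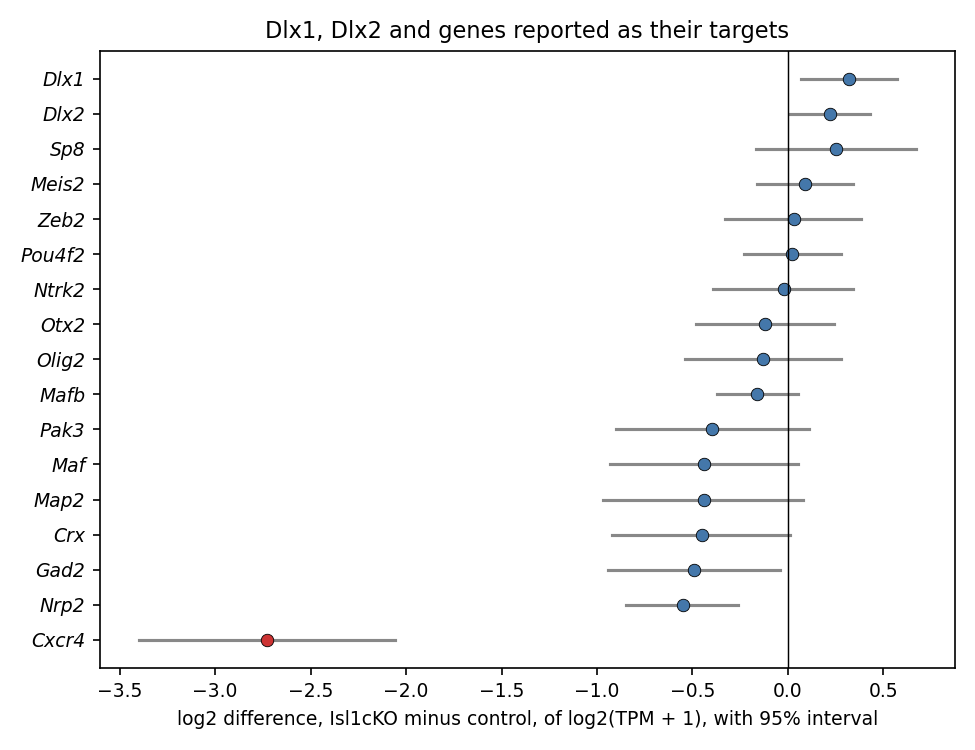
log2 difference, libraries labelled Isl1cKO minus control, with its 95% interval from limma, for Dlx1, Dlx2 and the 15 tested genes reported as their targets. Cxcr4 at -2.73 is drawn in red as the gene that passed the threshold over all genes, and most other intervals cross 0.

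Of 6 GABAergic transmission genes 4 were tested and 0 passed in limma, with 2 at an unadjusted p-value under 0.05. Slc6a13, a GABA transporter, differed by 0.51 (adjusted p-value 0.435 in limma), and Abat, the enzyme that breaks GABA down, by -0.10. The vesicular GABA transporter gene Slc32a1 was below the filter, at 1.80 TPM (replicate 1) and 0.950 TPM (replicate 2) among controls, against 0.860 TPM and 0.401 TPM for Isl1cKO.

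Of 12 genes reported to act upstream of or beside Dlx genes 9 were tested, 6 had a positive and 3 a negative mean difference, and 0 passed in limma, with 0 at an unadjusted p-value under 0.05. Vax2, a homeobox gene of the ventral retina, stood at 88.7 TPM (replicate 1) and 95.5 TPM (replicate 2) among controls, against 110.0 TPM and 166 TPM for Isl1cKO, a log2 difference of 0.55 (adjusted p-value 0.434). Hes5, a Notch target, differed by 0.22 and Six3, an eye-field homeobox gene, by -0.17. Of the forebrain regulators, Nkx2-1 and Gsx1 were listed at 0 in all 4 libraries.

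Of 13 other homeobox genes of retina or its surroundings 8 were tested. All 8 had a positive mean difference, against 36.2% of all tested genes, with a median of 0.13 on the log2 scale against -0.05. Homeobox genes of other lists went both ways, with Pou4f1 at -1.48 and Crx at -0.45 against Pax6 at 0.17 and Six6 at 0.18. The groups overlapped for 4 of the 8, and 4 lay higher without overlap, as did 14.9% of all tested genes. In limma 1 of the 8 passed the threshold, against 0.493% of all tested genes. This was Barhl1, which rose from 0.557 and 0.620 TPM to 6.01 and 4.74 TPM (log2 difference 2.00, SE 0.12, adjusted p-value 0.0199 in limma). Both controls lay below the filter of 1 TPM, so Barhl1 entered the test only through the libraries labelled Isl1cKO. At a filter of 5 TPM it was not tested. Its call did not hold with no filter (adjusted p-value 0.0799 in limma) or without either control library. Its adjusted p-values ran from 0.00714 to 0.0799 in limma over the alternatives that kept all libraries. With each library left out its log2 difference was 1.85 to 2.14. Its log2 difference was 1.32 with FPKM and 2.98 at a pseudocount of 0.1. Msx1 differed by 0.21 and Rax, an eye-field gene, by 0.14. The groups overlapped for Msx1 and did not for Rax.

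The genes whose profile over the 4 libraries was most like each member were found by Euclidean distance between centred log2(TPM + 1) values. For Dlx1 they were Spem1, Slc12a5, C1qtnf12, Necab3 and C030006K11Rik, at distances of 0.0146 to 0.0475. Dlx1as came in place 49 and Dlx2 in place 324 of 13983. For Dlx2 they were Rfx2, Akr7a5, Amacr, Meis1 and Creg1, at distances of 0.0149 to 0.0199, with Dlx1 in place 1587. Meis1, a homeobox gene of retinal progenitors, stood at 134 TPM in both controls and at 151 and 158 TPM in Isl1cKO replicates 1 and 2. Over only 4 libraries such likeness describes the order and size of 4 values and no more. Dlx1 was highest in Isl1cKO replicate 1 and Dlx2 in Isl1cKO replicate 2, which set the partners apart. The profile of Dlx5, which rests on trace values, was most like Prdm10, 4933439C10Rik, Ovgp1, Zfp825 and Prrg1. The near-flat profile of Dlx6 was most like Cop1, Cct7, Mtdh, Plpp1 and Rrm1.

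Markers of retinal cell types were read beside the Dlx values, and their part in the result was not tested. Of 16 ganglion cell markers 13 had a negative and 3 a positive difference, with a median log2 difference of -1.05. None passed in limma and 13 were at an unadjusted p-value under 0.05, as were 12.1% of all tested genes in either direction. Their summed level was 4850 to 5130 TPM in control and 3030 to 3350 TPM in Isl1cKO. This sum includes the 3 markers with a positive difference, which were Pou4f2, Atoh7 and the targeted gene Isl1. Atoh7 alone stood at 1020 and 1350 TPM in control and at 1060 and 1460 TPM in Isl1cKO. Dlx1 and Dlx2 thus lay higher in libraries in which 13 of the 16 ganglion cell markers lay lower without overlap. Of all tested genes 30.0% lay lower without overlap. Of 9 tested amacrine markers of 11, 7 had a negative mean difference, 0 passed and the summed level was 314 to 343 TPM in control and 290 to 344 TPM in Isl1cKO. Most of this sum came from Foxn4, which had a positive difference, at 190 and 196 TPM in control and 222 and 205 TPM in Isl1cKO. Of 5 tested horizontal cell markers of 6, 3 had a positive mean difference, 0 passed and the sum was 85.9 to 93.3 TPM and 81.0 to 117 TPM. Of 7 tested photoreceptor precursor markers of 8, all 7 had a negative mean difference, 0 passed and the sum was 341 to 374 TPM and 276 to 343 TPM. Of 11 retinal progenitor markers 6 had a positive and 5 a negative mean difference, 0 passed and the sum was 7580 to 7960 TPM and 6720 to 7550 TPM. Within this sum Ccnd1 stood at 1940 and 1500 TPM in control and at 848 and 961 TPM in Isl1cKO. Fgf15 had a log2 difference of -0.35, and Sfrp2, among the 6 with a positive difference, of 0.34. Unadjusted p-values under 0.05 numbered 2 of 9, 1 of 5, 1 of 7 and 2 of 11 in these 4 lists, against the same 12.1% over all tested genes.

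Markers of tissues outside the retina were read as well, since some of these tissues express Dlx genes. Of 10 ventral forebrain markers 3 were tested, Nkx2-1 and Npy were listed at 0 in all libraries, and Gsx2, Lhx6, Lhx8 and Sp9 stayed at 0.335 TPM or less. Sp8 stood at 10.1 to 15.1 TPM and Foxp2 at 8.18 to 11.4 TPM over the 4 libraries, with log2 differences of 0.25 and 0.26 (adjusted p-values 0.625 and 0.487 in limma). The list's sum of 79.0 to 79.7 TPM in control and 29.3 to 34.5 TPM in Isl1cKO came mostly from Sst, a neuropeptide gene. Sst fell from 60.5 and 56.8 TPM to 8.51 and 5.52 TPM (log2 difference -2.92, adjusted p-value 0.0221 in limma). The call of Sst did not hold with a pseudocount of 0.1 (adjusted p-value 0.0578), with no filter (0.0963) or without either control library (0.141 to 0.162), within a range of 0.00295 to 0.162. Of 14 craniofacial mesenchyme markers 6 were tested, 4 with a negative mean difference, 0 passed, Hand2 was listed at 0, and the sum was 24.1 to 30.2 TPM in control and 19.7 to 22.8 TPM in Isl1cKO. Of 8 surface ectoderm markers, which include Dlx3, 4 were tested, 2 with a negative mean difference, 0 passed, and the sum was 17 to 18.3 TPM and 16.0 to 19.1 TPM. Of 12 lens markers 8 passed in limma, all lower, against 0.465% of all tested genes that passed as lower. The lens sum was 228 to 282 TPM in control and 9.64 to 12.9 TPM in Isl1cKO. Of 6 olfactory markers 3 were tested, 0 passed, and Omp stayed at 0.116 TPM or less. The olfactory sum was 192 to 195 TPM in control and 196 to 234 TPM in Isl1cKO, most of it from Lhx2, which the retina also expresses. The 3 lists from which 0 passed held 1, 2 and 0 genes at an unadjusted p-value under 0.05, and the part of any of these tissues in the Dlx values was not tested.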

How the data were processed

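RNA of 2 control and 2 Isl1cKO retina libraries at E13.5 was poly(A)-selected and sequenced, per the labels' protocols. The submitters' processing notes name Trimmomatic, FastQC, HISAT2, SAMtools, StringTie and DESeq2 and the build mm10, with versions, roles and order not given in the sources used here. Per the file headers, the authors deposited coverage per base (a signal not scaled to depth), FPKM and TPM for each gene and library. No counts were used, so precision in reads is unknown. TPM was summed over repeated rows, and log2(TPM + 1) of the 13984 genes at 1 TPM or more in at least 2 libraries was fitted with limma 3.58.1 (R 4.3.3) on genotype alone, two-sided, a constant variance prior and Benjamini-Hochberg adjustment over all genes at 0.05. The fit was tested on simulated data. The members and lists were chosen with earlier results of these data known. Named were the members, Isl1, linked antisense genes, Dlx3, Dlx4, the 3 nearest genes on each side, list genes that passed, the 4 largest differences of each list and the 5 most alike profiles. Some genes that this rule names are not reported here. Other genes are described with their marker list or were chosen after their values were seen. Alternatives were another pseudocount, filters, FPKM, median-ratio scaling, a variance trend, a replicate block, the highest row per gene and each library left out.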

Additional observations from a re-analysis of the deposited data

How the results depend on the processing

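Under all 12 alternatives Dlx1 was higher without passing the threshold, at a log2 difference of 0.32 to 0.37 (adjusted p-value 0.180 to 0.389) over the 8 that kept all libraries. Dlx2 did so as well, at 0.22 to 0.27 (0.306 to 0.429). Leaving out each library in turn gave 0.25 to 0.39 for Dlx1, 0.19 to 0.25 for Dlx2 and 0.01 to 0.54 for Isl1, with the lone library assumed to vary like the other group. The trace values of Dlx5 and Dlx6 were log2 differences of 0.05 and -0.03. With each library left out that of Dlx5 ran from -0.11 to 0.22, on both sides of 0. That of Dlx6 became -0.26 at a pseudocount of 0.1, which by construction weighs low values more. The count of 69 genes past the threshold (4 higher, 65 lower) became 44 at a pseudocount of 0.1, 15 with no filter, 109 with FPKM and 110 with a variance trend, and 10 to 37 with each library left out. The cause of these changes was not tested. The count of 1 among listed Dlx targets became 0 at a pseudocount of 0.1, with no filter and with each library left out. With the replicate block 265 genes passed, and Dlx1 (adjusted p-value 0.298) and Dlx2 (0.423) did not. Deviations of same-numbered replicates correlated at 0.126, but with 2 pairs and no shared litter or day in the labels, the libraries share only a number. The number of libraries and the trace coverage limit what can be read from Dlx5 and Dlx6, and depth is known in bases but not in reads.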
